A study of Mus musculus with 8 samples.

Results

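Tcstv1, Tcstv3, Zfp352 and the Tdpoz genes are short, mostly intron-poor genes known for a burst of transcription in the mouse embryo at the two-cell stage. The set was defined as the gene rows named Tcstv1, Tcstv3 and Zfp352 together with every gene symbol that starts with Tdpoz. This gave 8 genes (Tcstv1, Tcstv3, Zfp352 and Tdpoz1 to Tdpoz5) of the 24062 genes in the count tables, and all 8 passed the filter on low counts. They had 0 to 14 counts in the libraries of untreated (WT) cells, so they passed only through treated libraries. Their RNA was measured by sequencing of poly(A) RNA in mouse embryonic stem cells (mESCs), with 2 libraries for each of 4 conditions. All libraries came from 1 line, #33-6, which carries a conditional Setdb1 allele, so the cells called WT carry that allele as well. WT mESCs received no agent and UNC0642-treated mESCs received 2 µM UNC0642, an inhibitor of the catalytic activity of G9a/GLP, for 3 days. Setdb1 KO mESCs received 800 nM 4-hydroxytamoxifen (4-OHT) for 5 days to delete Setdb1. UNC0642-treated Setdb1 KO mESCs were labelled as 800 nM 4-OHT for 2 days followed by 2 µM UNC0642 for 3 days. The sources do not say whether 4-OHT was kept during those last days, so between Setdb1 KO mESCs and the combined condition the addition of UNC0642 and a shorter 4-OHT exposure cannot be told apart. The controls received no 4-OHT, so an effect of 4-OHT itself and the loss of Setdb1 cannot be told apart, and all cells are 1 line.

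As background, a small share of mESCs passes at any time through a state that resembles the two-cell embryo, in which the endogenous retrovirus MERVL and genes linked to its long terminal repeats are transcribed. SETDB1 and G9a/GLP place methyl groups on lysine 9 of histone H3, a mark of silent chromatin, and both are known to restrain this state in mESCs. The question of the comparisons was how far each enzyme, and both together, hold these 8 genes silent. Tcstv1 and Tcstv3 encode small proteins of the two-cell-stage variable group, which have been linked to telomere length. Zfp352 encodes a zinc finger protein. The Tdpoz genes encode proteins with a TRAF-like domain and a POZ domain, the arrangement also found in the ubiquitin ligase adaptor SPOP. In bulk RNA, more cells in such a state and more RNA per cell cannot be told apart.

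Total counts per library were between 11702590 and 26807807. Counts are also given as CPM (counts scaled to a common library size after normalization for composition), on which a floor of 3 counts was 0.108 to 0.311 CPM, depending on the library. Setdb1 itself, the check of the knockout, stood at 169 and 127 CPM in WT mESCs and 130 and 86.3 CPM in UNC0642-treated mESCs. It stood at 47.3 and 51 CPM in Setdb1 KO mESCs and at 61.1 and 34.1 CPM in UNC0642-treated Setdb1 KO mESCs, below all 4 libraries without 4-OHT. The log2 fold change of Setdb1 KO over WT mESCs was -1.59 ± 0.439 (SE; adjusted p = 0.181 in edgeR, 0.0164 with the replicate number as a block). A count over the whole gene does not show the deleted exons. All 8 markers of mESCs were present, with a summed level of 2680 to 5420 CPM. Summed markers of other lineages were far lower, and some differed between conditions. The 8 trophectoderm markers summed to 37.1 to 70.8 CPM in Setdb1 KO mESCs and to 15.6 to 33.2 CPM in the other conditions. The 6 primitive endoderm markers summed to 56.7 to 58.9 CPM in UNC0642-treated mESCs and to 10.6 to 39.8 CPM in the others. The 6 fibroblast markers summed to 4.18 to 20.5 CPM, of which Lum was called in UNC0642-treated Setdb1 KO over WT mESCs with the replicate block (adjusted p = 0.0198 in edgeR) and not without it (log2 fold change 8.49, adjusted p = 0.0654). The 6 markers of oocytes and the germ line summed to 40.8 to 54 CPM without 4-OHT and to 151 to 221 CPM with it. Dazl, a gene of germ cells, rose in UNC0642-treated Setdb1 KO over WT mESCs (log2 fold change 3.33, adjusted p = 0.012 in edgeR). Of the 6, Ddx4 and Dazl carried nearly all of the signal, Oosp1 was at 0 in every library and Bmp15 reached at most 0.094 CPM. The part of these genes in the results was not tested.

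The Tdpoz genes are related in sequence, and each shares stretches with further genes, which bears on what a count of each can mean. In the GRCm38 annotation (GENCODE M21) Tdpoz1 to Tdpoz5 lie within 310 kb of chromosome 3. Tdpoz2 (chr3:93651542-93652686), Tdpoz1 (chr3:93669333-93676310) and Tdpoz5 (chr3:93960292-93961314) are on the minus strand, and Tdpoz4 (chr3:93796398-93797510) and Tdpoz3 (chr3:93826020-93827117) are on the plus strand. Tdpoz2 to Tdpoz5 are annotated as 1 exon each, and the models of Tdpoz3, Tdpoz4 and Tdpoz5 hold no 5′ UTR. Their coding sequences were 78.4% to 88% identical over the 10 pairs. The 60 aligned coding bases with the most differences show how the copies can be told apart. They are given 5′ to 3′ from coding base 297 to 356, with capitals for each base that differs from Tdpoz1.
Tdpoz1, chr3:93671120-93671179, minus strand: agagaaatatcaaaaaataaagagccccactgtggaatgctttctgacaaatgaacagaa
Tdpoz2, chr3:93652308-93652367, minus strand: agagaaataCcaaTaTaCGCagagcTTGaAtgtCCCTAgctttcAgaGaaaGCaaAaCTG
Tdpoz3, chr3:93826316-93826375, plus strand: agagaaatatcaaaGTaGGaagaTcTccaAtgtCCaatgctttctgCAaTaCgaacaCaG
Tdpoz4, chr3:93796694-93796753, plus strand: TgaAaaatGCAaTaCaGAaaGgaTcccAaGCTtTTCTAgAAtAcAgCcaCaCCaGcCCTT
Tdpoz5, chr3:93960959-93961018, minus strand: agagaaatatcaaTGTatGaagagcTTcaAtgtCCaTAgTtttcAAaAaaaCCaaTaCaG
Gm10697, chr3:94072289-94072348, minus strand: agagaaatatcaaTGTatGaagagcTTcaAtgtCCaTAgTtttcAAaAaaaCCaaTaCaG

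In this stretch Tdpoz4 differed from Tdpoz1 at 33 of the 60 bases, Tdpoz2 at 23, Tdpoz5 at 20 and Tdpoz3 at 15. Tdpoz5 and Gm10697, a gene on the same chromosome that RefSeq lists as Tdpoz7, were the same here and over all 1020 coding bases. Every 100-base stretch of Tdpoz5 is also present in Gm10697, so a read that lies within the annotated transcript cannot separate them. The counts of these rows followed each other in every library. They were 0 and 0 for Tdpoz5 and Gm10697 in WT replicate 1, 3 and 3 in WT replicate 2, 105 and 105 in replicate 1 of UNC0642-treated Setdb1 KO mESCs, and 860 and 874 in replicate 2. The Tdpoz5 value is therefore the level that the counting assigned to 1 of at least 2 identical copies.

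The other members shared less. Of the 100-base stretches of Tdpoz3, 46.7% were found in Gm4982, and 23.8% of those of Tdpoz1, 22.1% of Tdpoz2 and 11.6% of Tdpoz4 were found in another gene. No 100-base stretch was shared between the Tdpoz members themselves. Zfp352 shared 0.643%, with the pseudogene Zfp353-ps. With 50-base stretches the shares rose to 66.2% for Tdpoz3, 44.4% for Tdpoz1, 48.3% for Tdpoz2, 41.2% for Tdpoz4 and 7.09% for Zfp352. Values of the Tdpoz genes are thus uncertain as values of single loci, and Zfp352 is the member whose reads are least shared.

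**Figure D1:**
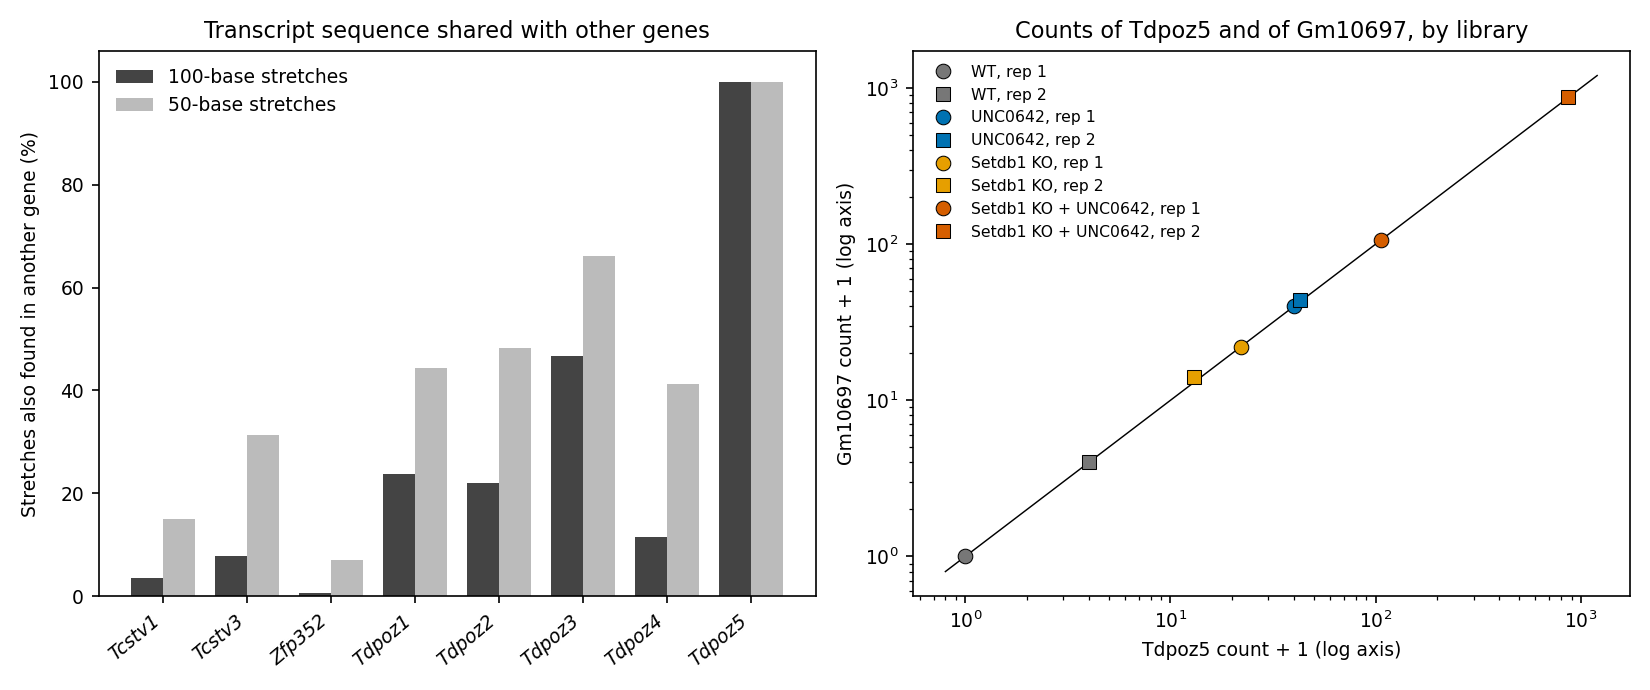
Left, the percent of 100-base (dark) and 50-base (light) stretches of each gene's annotated transcripts that also occur in another gene. Right, the count of Tdpoz5 against that of Gm10697 in each of the 8 libraries (1 added, log axes, line of equality), where the points lie on the line from 0 and 0 to 860 and 874 counts.

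Tcstv1 (chr13:119893388-119894785, minus strand) and Tcstv3 (chr13:120316878-120318178, plus strand) lie on opposite strands at the ends of a 425 kb cluster on chromosome 13, each with up to 2 exons. Their coding sequences were 94.7% identical, with 27 differences over 507 aligned bases. The 60 coding bases from 394 to 453 hold the most differences of these genes and of their neighbour AF067061, and capitals mark the bases that differ from Tcstv1.
Tcstv1, chr13:119893642-119893701, minus strand: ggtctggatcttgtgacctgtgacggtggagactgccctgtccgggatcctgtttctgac
Tcstv3, chr13:120317960-120318019, plus strand: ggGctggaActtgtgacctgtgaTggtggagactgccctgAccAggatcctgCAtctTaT
AF067061, chr13:120264195-120264254, plus strand: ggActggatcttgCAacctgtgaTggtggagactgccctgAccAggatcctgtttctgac

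Tcstv3 differed from Tcstv1 at 9 of these bases and AF067061 at 6. Only 3.58% of the 100-base stretches of Tcstv1 and 7.79% of those of Tcstv3 occurred in another gene, or 15% and 31.4% with 50-base stretches. Both Tcstv rows hence share less sequence with other genes than those of the Tdpoz genes.

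Zfp352 (chr4:90218820-90225702, plus strand, up to 2 exons) stands alone on chromosome 4. RefSeq promoter windows (250 bases before to 50 after each start, GRCm38.p6) matched 4 of the 8 genes, namely Tdpoz1, Tdpoz4, Tdpoz5 and Zfp352. The bases before the annotated start of Zfp352 and Tdpoz1 are shown because both share a hexamer that was noticed on reading them. Capitals mark TAATCC, which was searched on both strands.
Zfp352, chr4:90218570-90218819, plus strand: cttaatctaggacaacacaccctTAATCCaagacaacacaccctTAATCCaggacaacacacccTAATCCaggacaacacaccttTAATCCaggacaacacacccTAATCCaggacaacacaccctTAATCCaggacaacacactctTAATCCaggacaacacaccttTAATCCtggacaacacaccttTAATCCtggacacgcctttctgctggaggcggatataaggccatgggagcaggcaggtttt
Tdpoz1, chr3:93676311-93676533, minus strand: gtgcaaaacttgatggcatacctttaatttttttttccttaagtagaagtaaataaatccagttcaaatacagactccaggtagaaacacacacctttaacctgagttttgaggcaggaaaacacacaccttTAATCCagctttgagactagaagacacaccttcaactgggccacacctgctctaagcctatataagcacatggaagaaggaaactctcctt

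The Zfp352 window held TAATCC 9 times, spaced through a tandem array, all on the strand of the gene. Of 32851 promoter windows, 7.06% held the hexamer at least once on either strand and 1 window, that of Zfp352, held it as often. The Tdpoz1 window held it 1 time, and those of Tdpoz4 and Tdpoz5 did not hold it. The letters TATAA occurred 1 time in each of the windows of Zfp352 and Tdpoz1, 2 times in that of Tdpoz5 and not in that of Tdpoz4, against 24.9% of all windows with at least 1. The letters GATTCAATC, from the motif known for the transcription factor DUX, were in none of the 4 windows and in 0.149% of all windows. These matches were sought after the windows had been read and are descriptions of sequence.

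Zfp352 was almost silent in WT mESCs, with 0 and 8 counts (0 and 0.289 CPM) in replicates 1 and 2. It had 239 and 158 counts (11.2 and 5.68 CPM) in UNC0642-treated mESCs and 150 and 28 counts (6.35 and 1.54 CPM) in Setdb1 KO mESCs. In UNC0642-treated Setdb1 KO mESCs it had 340 and 623 counts (35.3 and 22.9 CPM). Both libraries of the combined condition were higher than any other library, and those of the single conditions overlapped with each other and stood above both WT libraries. The mean level was 0.144 ± 0.204 CPM (SD, n = 2) in WT mESCs and 29.1 ± 8.75 CPM (SD, n = 2) in UNC0642-treated Setdb1 KO mESCs.

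Tcstv1 had 2 and 11 counts (0.174 and 0.397 CPM) in WT mESCs, 200 and 82 (9.4 and 2.95 CPM) with UNC0642, 157 and 39 (6.64 and 2.15 CPM) in Setdb1 KO mESCs, and 147 and 324 (15.3 and 11.9 CPM) with both. Tcstv3 had 0 and 14 counts (0 and 0.505 CPM), 127 and 61 (5.97 and 2.19 CPM), 105 and 30 (4.44 and 1.65 CPM), and 121 and 338 (12.6 and 12.4 CPM) in the same order. Both genes were lowest in WT mESCs, intermediate and overlapping in the single conditions, and highest with both. The replicates of the combined condition lay close to each other for Tcstv3, at 12.5 ± 0.0933 CPM (SD, n = 2), and the replicates of UNC0642-treated mESCs lay further apart, at 4.08 ± 2.67 CPM (SD, n = 2).

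The Tdpoz genes are described in the order of their copies. Tdpoz1 was not detected in WT mESCs (0 and 0 counts), which allows up to 0.261 and 0.108 CPM with a floor of 3 counts in each library. It had 68 and 34 counts (3.2 and 1.22 CPM) with UNC0642, 24 and 1 (1.02 and 0.055 CPM) in Setdb1 KO mESCs, and 66 and 119 (6.85 and 4.37 CPM) with both. Tdpoz2, the lowest member in the combined condition, had 0 and 2 counts (0 and 0.0721 CPM) in WT mESCs, 44 and 26 (2.07 and 0.935 CPM) with UNC0642, 19 and 0 (0.804 and 0 CPM) in Setdb1 KO mESCs, and 16 and 75 (1.66 and 2.76 CPM) with both. For these genes replicate 2 of Setdb1 KO mESCs was below the floor of 3 counts while replicate 1 was not. Tdpoz2 was also the member whose libraries in the combined condition overlapped those of UNC0642-treated mESCs.

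Tdpoz3 had 0 and 7 counts (0 and 0.253 CPM) in WT mESCs, 44 and 45 (2.07 and 1.62 CPM) with UNC0642, 70 and 22 (2.96 and 1.21 CPM) in Setdb1 KO mESCs, and 111 and 168 (11.5 and 6.17 CPM) with both. Tdpoz4 had 0 and 7 counts (0 and 0.253 CPM), 93 and 94 (4.37 and 3.38 CPM), 58 and 13 (2.45 and 0.715 CPM), and 147 and 463 (15.3 and 17 CPM) in the same order. Tdpoz5 had 0 and 3 counts (0 and 0.108 CPM), 39 and 42 (1.83 and 1.51 CPM), 21 and 12 (0.889 and 0.66 CPM), and 105 and 860 (10.9 and 31.6 CPM). All 3 genes stood higher in both libraries of the combined condition than in any other library. Tdpoz5 differed from the rest in the spread of the combined condition, where replicate 2 was 2.9 times replicate 1, a mean of 21.3 ± 14.6 CPM (SD, n = 2). The next largest spread there was that of Tdpoz3, at 1.87 times with replicate 1 the higher.

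**Figure D2:**
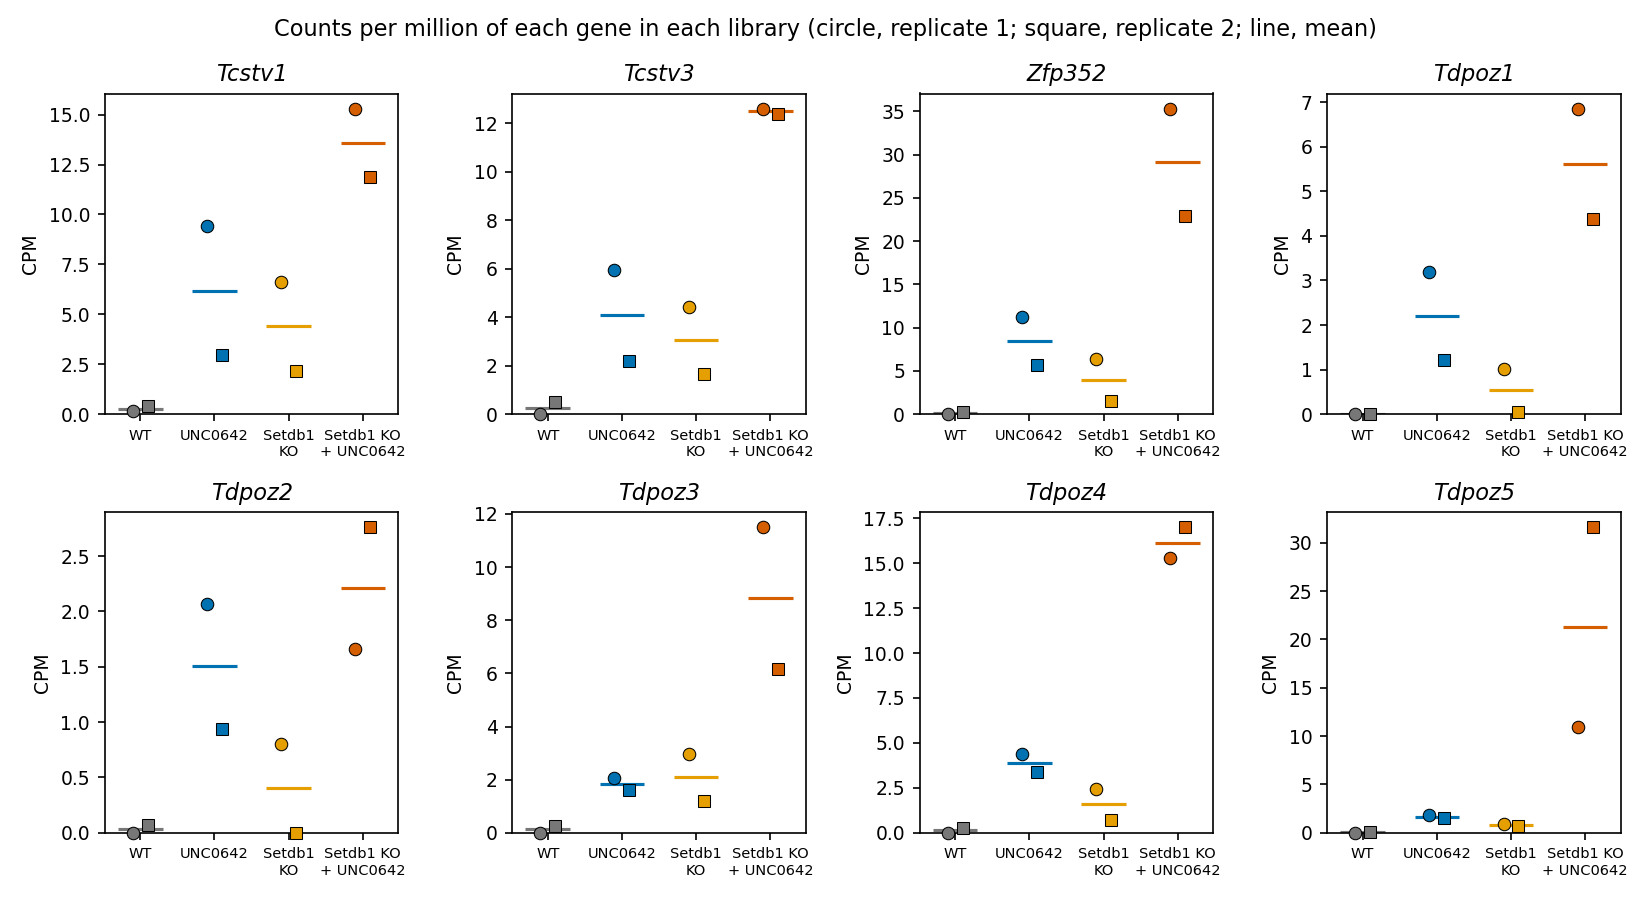
CPM of the 8 genes in each of the 8 libraries by condition (circle, replicate 1; square, replicate 2; line, mean of 2; each panel has its own linear axis from 0). The UNC0642-treated Setdb1 KO libraries are the highest 2 for 7 of the 8 genes, with Tdpoz2 the exception, and the WT libraries lie at or near 0.

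Summed over the 8 genes, the level was 0.174 and 1.88 CPM in WT mESCs, 40.1 and 19.5 CPM with UNC0642, 25.6 and 7.98 CPM in Setdb1 KO mESCs, and 109 and 109 CPM with both. Replicate 1 was the higher one in UNC0642-treated and in Setdb1 KO mESCs and the lower one in WT mESCs. The sum was the same to 3 digits in both libraries of the combined condition, although their totals were 11897456 and 26250060 counts and the genes within the sum differed.

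UNC0642-treated mESCs were compared with WT mESCs first. All 8 genes were higher in both UNC0642-treated libraries than in both WT libraries, where 13.7% of all features tested were. Because the members passed the filter only through treated libraries, such counts against WT mESCs are partly set by the filter and are descriptions. Fitted log2 fold changes were between 3.51 (Tdpoz3) and 8.53 (Tdpoz1), with a median of 4.51 against -0.018 for all 16245 features. None of the 8 passed an adjusted p under 0.05 with a fold change above 10 in edgeR's quasi-likelihood test, and 0% of all features were called. Adjusted p-values were between 0.217 (Zfp352) and 0.921 (Tdpoz2). At an unadjusted p under 0.05 all 8 passed, against 3.35% of features. DESeq2 on the 4 libraries called 5 of 8 (Zfp352, Tcstv1, Tcstv3, Tdpoz1 and Tdpoz4), where it called 0.531% of features. DESeq2 on all 8 libraries called 7, all but Tdpoz2, against 0.603% of features. With the replicate number as a block, Zfp352 had an adjusted p of 0.0547 and no member was called, where 0.135% of features were. Without the filter on low counts edgeR called 1 member, against 0.224% of features. The Zfp352 change in edgeR was 5.51 ± 1.08 on the log2 scale (SE, n = 2 libraries per condition). The fitted value of Tdpoz1 rests on a prior count because WT mESCs were at 0, and against a floor of 3 counts over both WT libraries its pooled level was at least 27.2-fold higher. The lower 95% counting limit of that ratio, which also takes in the counting error of the UNC0642-treated libraries, was 21.7.

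Setdb1 KO mESCs were then compared with WT mESCs. Both Setdb1 KO libraries stood above both WT libraries for 7 of the 8 genes, all but Tdpoz2, where 17.5% of features did. For Tdpoz1 this rests on 1 count in Setdb1 KO replicate 2 against 0 in WT mESCs, which is below the floor of 3 counts. Log2 fold changes were between 2.98 (Tdpoz2) and 6.53 (Tdpoz1) with a median of 3.52, against -0.022 for all features. No member was called by edgeR, where 0.837% of features were, and the lowest adjusted p was 0.098, of Tcstv1. At an unadjusted p under 0.05, 7 of 8 passed, against 8.7% of features. With the replicate block, 2 members were called, where 1.45% of features were. Tcstv1 had a log2 fold change of 3.45 (adjusted p = 0.0231) and Zfp352 one of 3.95 (adjusted p = 0.0306) in that edgeR fit. DESeq2 on the 4 libraries called the same pair of 6 members it tested, against 1.47% of features, and DESeq2 on all 8 libraries called 6 of 8, against 1.61% of features. EdgeR on the 4 libraries called 2 members, against 1.34% of features, and edgeR without the filter called 2, against 0.995%. For Tdpoz1 the pooled level was at least 7.82-fold that of WT mESCs against the same floor (lower 95% counting limit 5.9), and 24 of its 25 counts came from replicate 1. Without Setdb1 KO replicate 1, the log2 fold change of Tdpoz2 turned to -3.14. The count ratio of Tdpoz2 was 8.91 (95% counting interval 2.15 to 78.9) from 19 and 2 counts.

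UNC0642-treated Setdb1 KO mESCs had the largest fitted changes over WT mESCs for each of the 8 genes. All 8 were higher in both libraries than in both WT libraries, where 22.3% of features were. In edgeR 7 of 8 rose past both thresholds, where 2.87% of features did, and the median log2 fold change was 6.2 against -0.013 for all features. At an unadjusted p under 0.05 all 8 passed, against 18% of features. Zfp352 rose by 7.29 ± 1.14 (log2, SE; adjusted p = 0.00998), Tcstv1 by 5.45 ± 0.931 (adjusted p = 0.0139) and Tcstv3 by 5.37 ± 1.12 (adjusted p = 0.0307). Among the Tdpoz genes, Tdpoz5 rose by 8.12 ± 1.02 (adjusted p = 0.00518), Tdpoz4 by 6.63 ± 1.05 (adjusted p = 0.0102) and Tdpoz3 by 5.77 ± 1.04 (adjusted p = 0.0166). Tdpoz1 also passed (adjusted p = 0.027), with a pooled level at least 65.6-fold that of WT mESCs against the same floor (lower 95% counting limit 52.8). Tdpoz2 had a log2 fold change of 5.39 ± 1.58 and did not pass in edgeR (adjusted p = 0.102), and it passed with the replicate block (adjusted p = 0.0332), where all 8 genes did and 4.22% of features. Its count ratio was 48.4 (95% counting interval 13 to 406), from 91 and 2 counts. That of Tdpoz5 was 342 (117 to 1660), from 965 and 3 counts. DESeq2 called all 8, on the 4 libraries (3.8% of features) and on all 8 libraries (3.85%), and with scaling by total counts edgeR called 6 (1.96%). Leaving out a WT library leaves 1 in that arm, which is then assumed to vary like the other conditions, and calls were lost over all features as well as over the members. Without WT replicate 1, edgeR called 0 of 8 (lowest adjusted p 0.0689) and 0% of features, and without WT replicate 2 it called 1, Tdpoz5 (adjusted p = 0.047), and 0.325% of features. Without either replicate of the combined condition it called 5, not Tdpoz2, Tcstv3 and Tdpoz1, where 1.93% (without replicate 1) and 1.78% of features were called. With 1 WT library left out, the log2 fold changes of the 8 genes stayed between 4.6 and 12.2. With 1 library of the combined condition left out, they stayed between 4.95 and 10.1.

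**Figure D3:**
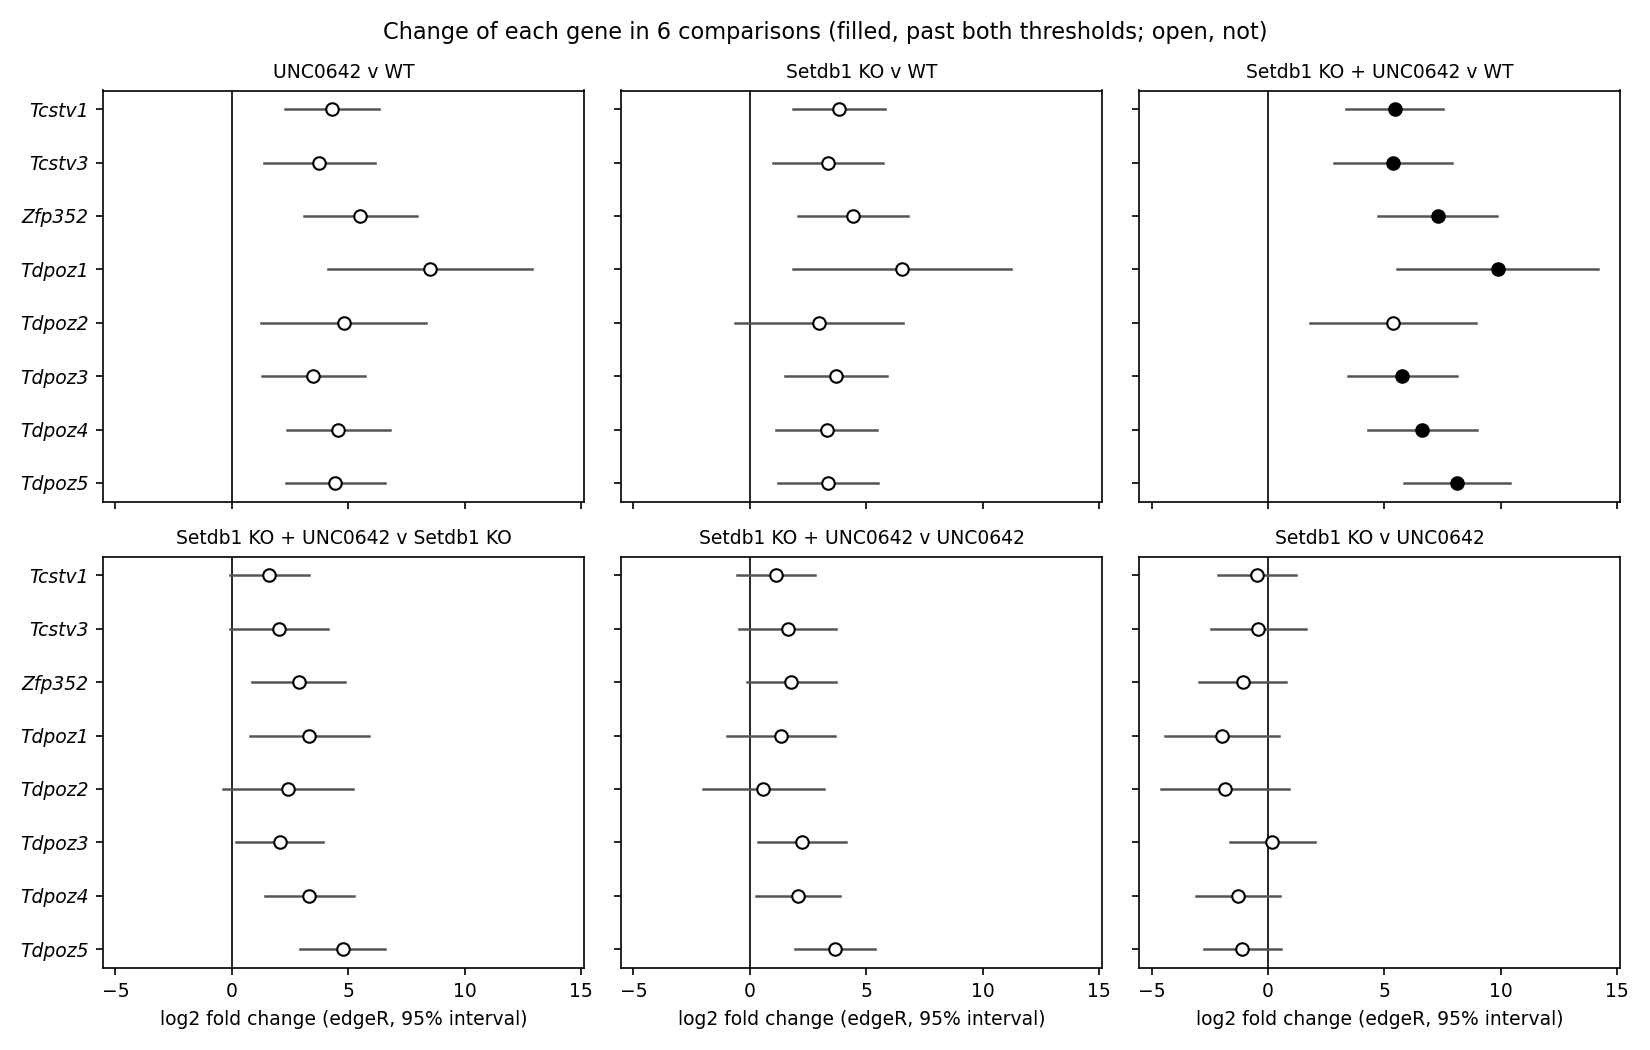
Log2 fold change (edgeR, point) with its 95% interval (line) for the 8 genes in 6 comparisons, filled where the adjusted p was under 0.05 and the fold change above 10. Filled points are found in the comparison of UNC0642-treated Setdb1 KO with WT mESCs for all but Tdpoz2, and the values of Tdpoz1 against WT rest on a prior count.

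UNC0642-treated Setdb1 KO mESCs were next compared with Setdb1 KO mESCs, which differ in UNC0642 and, by their labels, in the days of 4-OHT. All 8 genes were higher in both libraries than in both Setdb1 KO libraries, where 12.2% of features were. Log2 fold changes ran from 1.62 (Tcstv1) to 4.77 (Tdpoz5), with a median of 2.64 against -0.014 for all features. No member was called by edgeR and 0% of features were, while 5 of 8 had an unadjusted p under 0.05, against 4.58% of features, and all 8 with the replicate block, against 10.7%. With the block 1 member, Tdpoz5, was called (log2 fold change 4.63, adjusted p = 0.0458), where 0.0923% of features were. DESeq2 called Tdpoz4 and Tdpoz5 on the 4 libraries, where 0.352% of features were called, and 2 members on all 8 libraries, where 0.32% were. Without replicate 2 of UNC0642-treated Setdb1 KO mESCs, the log2 fold change of Tdpoz5 was 3.84 in edgeR (adjusted p = 0.813).

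Loss of Setdb1 in UNC0642-treated cells was asked by comparing UNC0642-treated Setdb1 KO with UNC0642-treated mESCs. Here 7 of 8 genes, all but Tdpoz2, were higher in both libraries, where 16.3% of features were. Log2 fold changes were between 0.57 (Tdpoz2) and 3.67 (Tdpoz5), with a median of 1.7 against -0.022 for all features. No member was called by edgeR, where 0.825% of features were, and 3 of 8 had an unadjusted p under 0.05 against 9.07% of features, or 6 of 8 against 18.9% with the replicate block. Tdpoz5 was nearest to a call, with 3.67 ± 0.763 on the log2 scale (adjusted p = 0.0629). With the replicate block it was called (3.55, adjusted p = 0.0119), where 1.55% of features were. DESeq2 called the same gene on the 4 libraries, where 1.75% of features were, and on all 8, where 1.66% were, and edgeR without the filter called 1 member, where 0.966% were. Without replicate 2 of UNC0642-treated Setdb1 KO mESCs its log2 fold change was 2.71 in edgeR (adjusted p = 0.336). The Tcstv genes had smaller values, 1.14 for Tcstv1 (95% interval -0.544 to 2.82) and 1.62 for Tcstv3 (-0.454 to 3.69). Their libraries did not overlap, and neither passed in edgeR with the replicate block (adjusted p = 0.217 and 0.244).

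The single conditions were also set against each other. Both Setdb1 KO libraries were below both UNC0642-treated libraries for 4 genes, Tdpoz1, Tdpoz2, Tdpoz4 and Tdpoz5, and above them for none, where 12% of features were below and 12.6% above. Fitted log2 fold changes of Setdb1 KO over UNC0642-treated mESCs were between -1.99 (Tdpoz1) and 0.19 (Tdpoz3), with a median of -1.09 against -0.0078 for all features. No member was called higher by edgeR, where 0.406% of features were, and none was called lower, where 2 features were. No member had an unadjusted p under 0.05, where 6.06% of features did, and with the replicate block 1 did, Tdpoz1, where 11.5% of features did. With the block none was called higher, where 0.819% of features were. DESeq2 called none on the 4 libraries, where 0.891% of features were called higher, or on all 8, where 0.917% were. The 95% intervals were wide, for Zfp352 from -2.98 to 0.796, so a severalfold difference in favour of UNC0642 was not detectable as one with 2 libraries. The signs of Tcstv1, Tcstv3 and Tdpoz3 turned when 1 library was left out.

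Whether both treatments together gave more or less than the sum of the single log2 changes was asked by the interaction term. It was negative for 7 of 8 genes, from -5.19 (Tdpoz1) to -1.24 (Tdpoz4), and 0.32 for Tdpoz5, with a median of -2.06 against -0.043 for all features. These sizes depend on the prior count, since WT counts were at or near 0: with a prior count of 2 they ran from -2.37 (Tcstv1) to 1.18 (Tdpoz5), and Tdpoz1 had -1.44. No member and 0% of features passed an adjusted p under 0.05 in edgeR. DESeq2 on all 8 libraries called no member, where it called 0 of 16245 features higher and 1 lower. That 1 belongs to the list of two-cell genes used below. Tcstv1 alone had an unadjusted p under 0.05 in edgeR (-2.69 ± 1.12, SE), where 0.751% of features did. All these comparisons share libraries, so each gives its own values and not an independent test of the others.

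The make-up of the Tdpoz counts differed between libraries. Tdpoz5 was 13.5% and 17.4% of the summed Tdpoz counts in the UNC0642-treated libraries and 10.9% and 25% in the Setdb1 KO libraries. With both treatments it was 23.6% of 445 counts in replicate 1 (exact 95% binomial interval 19.7 to 27.8) and 51% of 1685 counts in replicate 2 (48.6 to 53.5). The intervals of these replicates do not meet, so they differed by more than counting error. The share of Tdpoz3 went the other way, at 24.9% and 9.97% in the same libraries, and was 36.5% and 45.8% in Setdb1 KO mESCs against 15.3% and 18.7% in UNC0642-treated mESCs. Tdpoz4 held 27.1% to 39% in every library with Tdpoz counts. Intervals cover counting error only, and a count that the counting assigned to 1 copy may come from another. Gm10697 followed Tdpoz5 in replicate 2, with 874 counts against 105 in replicate 1.

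**Figure D4:**
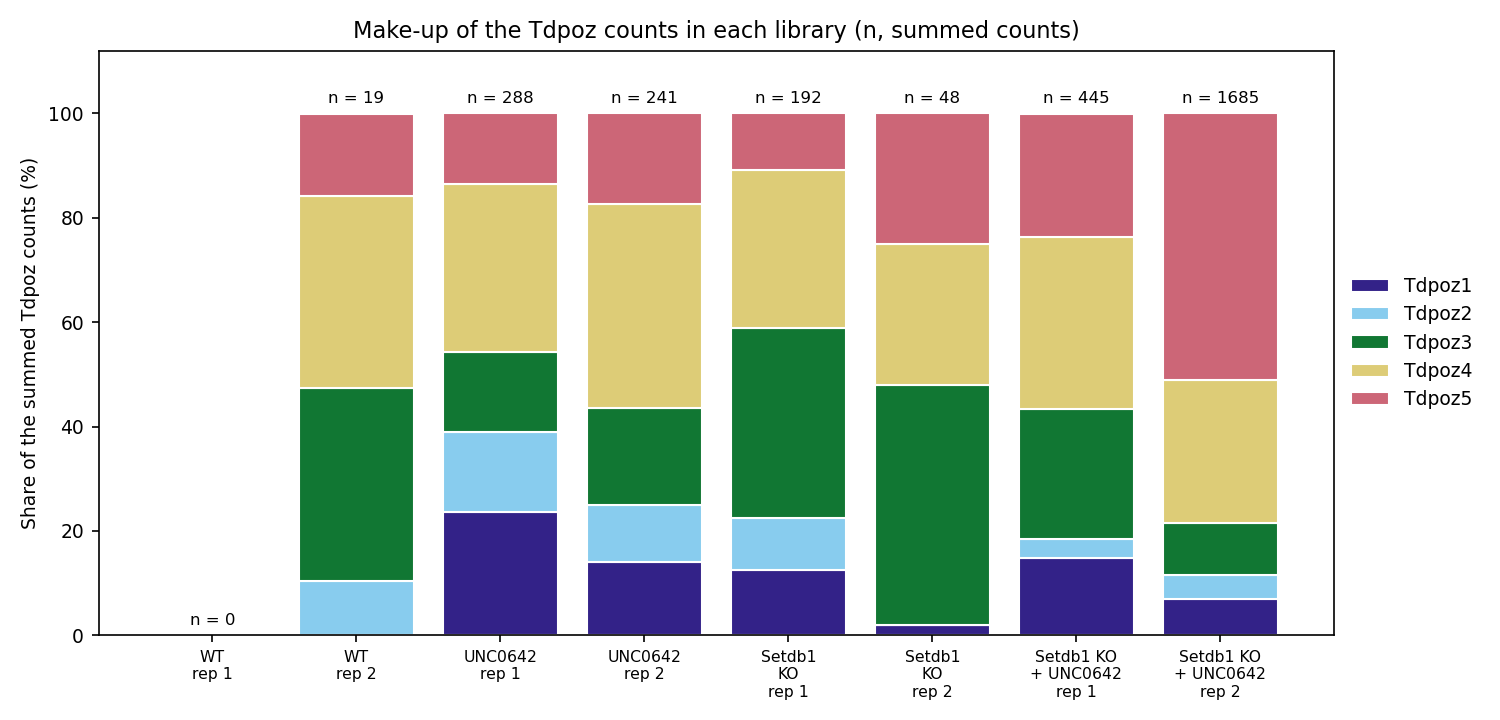
Share of each Tdpoz gene in the summed Tdpoz counts of each library, in percent, with the summed count (n) above each bar. Tdpoz5 holds 51% in replicate 2 of UNC0642-treated Setdb1 KO mESCs and 10.9% to 25% in the other 6 libraries with Tdpoz counts, and WT replicate 1 has none.

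Levels of different genes were compared per kilobase of annotated exon. In UNC0642-treated Setdb1 KO mESCs the order of mean levels was Tdpoz5 (20.8 ± 14.3 CPM per kilobase, SD, n = 2), Tcstv3 (16 ± 0.12), Tdpoz4 (14.5 ± 1.12), Zfp352 (12.8 ± 3.85), Tcstv1 (9.71 ± 1.69), Tdpoz3 (8.06 ± 3.44), Tdpoz1 (2.38 ± 0.744) and Tdpoz2 (1.93 ± 0.677). Tdpoz5 lay at 10.7 and 30.9 CPM per kilobase and so overlapped the 4 genes that followed it. Tcstv3 and Tdpoz4 did not overlap each other, whereas Tdpoz4, Zfp352, Tcstv1 and Tdpoz3 each overlapped the next in this order. Tdpoz1 and Tdpoz2 overlapped each other and lay below every library of the other 6 genes. Tcstv3 was the highest in each of the other conditions, at 5.24 ± 3.43 CPM per kilobase with UNC0642, 3.91 ± 2.54 in Setdb1 KO mESCs and 0.324 ± 0.458 in WT mESCs, although its libraries overlapped those of Tcstv1 in all 3. Tdpoz1 had the lowest mean in every condition but the combined one, where Tdpoz2 had it. The libraries of Tdpoz1 and Tdpoz2 overlapped in UNC0642-treated and in Setdb1 KO mESCs, and in WT mESCs both genes were below the floor of 3 counts. Before division by length Tdpoz1 had the higher mean, at 2.21 against 1.5 CPM with UNC0642 and 0.535 against 0.402 CPM in Setdb1 KO mESCs. The lengths are those of GENCODE M21, and the annotation the authors counted with is not known.

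Across the 8 libraries the levels of the 8 genes were closely correlated. Pearson correlations of log2 CPM over the 28 pairs were between 0.814 (Tdpoz2 with Tdpoz3) and 0.989 (Zfp352 with Tdpoz4), with a median of 0.94. The points share conditions, library size and, for copies, reads, and the correlations are descriptions. Of 16237 other features, the one most like the Tcstv sum was AF067061, itself a Tcstv relative (r = 0.996), followed by BB287469, Gm2022, Gm21319 and Gm10696 (0.99 each). Nearest to the Tdpoz sum were Gm20767 (0.992), 1700030L20Rik (0.991), Xlr3a (0.99), Gm10696 (0.99) and Gm2022 (0.989). Nearest to Zfp352 were Gm10696 (0.996), BB287469 (0.995), Gm5662 (0.995), B020004J07Rik (0.994) and Gm21319 (0.993). Gm10696, itself a relative of the Tdpoz genes (coding sequence 86.2% identical to that of Tdpoz5), appeared in all 3 lists. It stood at 0 and 0.649 CPM in WT mESCs, 23.6 and 7.88 CPM with UNC0642, 11.9 and 2.09 CPM in Setdb1 KO mESCs, and 89.4 and 52 CPM with both, the same order of conditions as Zfp352.

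Genes next to the members were examined within 500 kb on each side. Around the Tdpoz genes 11 further genes were tested, and 4 rose past both thresholds in UNC0642-treated Setdb1 KO over WT mESCs by edgeR. Of all features tested, 2.87% did. Gm9125, which RefSeq lists as Tdpoz9, rose by 8.52 on the log2 scale (adjusted p = 0.0104), Gm10697 by 8.13 (adjusted p = 0.00512), Gm10696 by 7.49 (adjusted p = 0.0153) and Them5, a thioesterase gene, by 4.38 (adjusted p = 0.0156). Coding sequences of Gm9125 and Tdpoz1 were 98.4% identical, so their counts are not independent. S100a11 and S100a10, calcium-binding protein genes that lie just outside the Tdpoz genes, had log2 fold changes of 0.00257 and 1.29 (adjusted p = 0.998 and 0.126 in edgeR). A further RefSeq Tdpoz gene, Gm4858 (Tdpoz8), lies beyond that window on the same chromosome and rose by 5.8 (adjusted p = 0.0381).

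Around the Tcstv genes 12 further genes were tested and 5 rose past both thresholds in edgeR, where 2.87% of all features did. These were AF067063 (7.08 on the log2 scale, adjusted p = 0.00948), BC147527 (5.46, adjusted p = 0.0348), B020031M17Rik (5.35, adjusted p = 0.00948), Gm20767 (5.18, adjusted p = 0.0119) and AF067061 (5.06, adjusted p = 0.0388). All but AF067063 lie between Tcstv1 and Tcstv3, and no tested gene between them failed to pass. The 7 genes further out, such as Hmgcs1 (0.165, adjusted p = 0.958), a gene of cholesterol synthesis, and Zfp131 (0.595, adjusted p = 0.518), did not pass. No gene within 500 kb of Zfp352 was expressed enough to be tested.

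**Figure D5:**
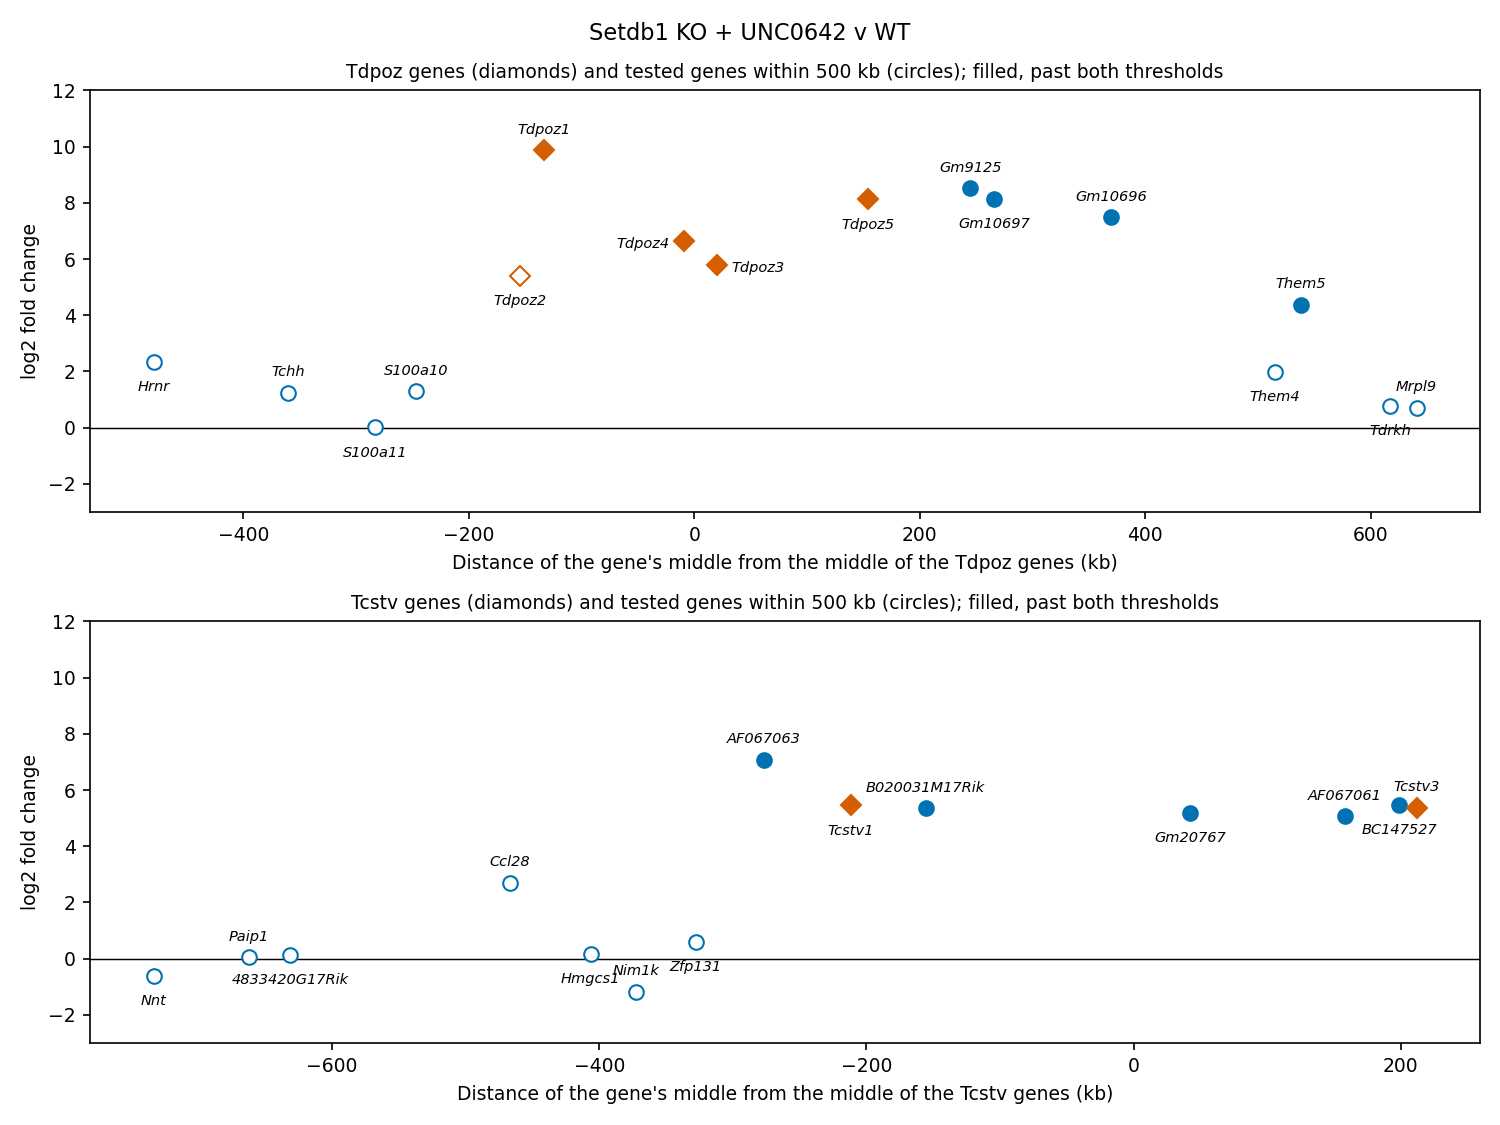
Log2 fold change (edgeR, UNC0642-treated Setdb1 KO over WT mESCs) for the Tdpoz genes (top) and Tcstv genes (bottom), drawn as diamonds, and for tested genes within 500 kb, drawn as circles, by distance in kb from the middle of each family. Filled symbols passed both thresholds: 4 of 11 neighbours of the Tdpoz genes and 5 of 12 neighbours of the Tcstv genes, which are mostly further copies. Of all features tested, 2.87% rose past both.

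The members were then set beside other genes of the two-cell state, from a list of 44 of which 38 were in the tables and 35 were tested. In UNC0642-treated Setdb1 KO over WT mESCs 29 of 35 rose past both thresholds in edgeR, where 2.87% of all features did, and none fell. The median log2 fold change of the 35 was 5.58, near the 6.2 of the 8 members and against -0.013 for all features. Leading among them were the deubiquitinase genes Usp17lb (8.1, adjusted p = 0.00193), Usp17le (5.67, adjusted p = 0.00277) and Usp17la (6.72, adjusted p = 0.0059), with BB287469 (5.88, adjusted p = 0.0059), a gene related to translation factor eIF1A. In Setdb1 KO over WT mESCs 4 of 35 rose, where 0.837% of all features did, and with the replicate block 13, where 1.45% did. In UNC0642-treated over WT mESCs none of 35 passed in edgeR (0% of all features), and 30 had an unadjusted p under 0.05 (3.35%). With the replicate block 8 passed (0.135% of all features) and in DESeq2 on all 8 libraries 28 did (0.603%). AF067061, B020004J07Rik, B020031M17Rik, Gm2022, Gm5662 and Gm20767 also belong to this list, which overlaps the genes named above.

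Repeats known to be transcribed with these genes were measured in the same libraries. MERVL-int, the internal part of MERVL, stood at 97.8 and 270 CPM in WT mESCs, 5520 and 2230 CPM with UNC0642, 1920 and 709 CPM in Setdb1 KO mESCs, and 11100 and 4360 CPM with both. Of 7 MERVL and MT2 subfamilies 2 rose past both thresholds in UNC0642-treated Setdb1 KO over WT mESCs by edgeR, where 2.87% of all features did. They were MERVL-int (5.39, adjusted p = 0.0155 in edgeR) and its terminal repeat MT2_Mm (5.02, adjusted p = 0.0123). MT2C_Mm passed the adjusted p alone (2, adjusted p = 0.0428) and MT2B2 did not (1.65, adjusted p = 0.0533). With the replicate block MT2B2, MT2B1 and MT2A also passed the adjusted p alone (0.00507, 0.0078 and 0.0188), at which 9.98% of all features rose. In the combined condition MERVL-int was 2.54 times as high in replicate 1 as in replicate 2. Zfp352, Tcstv1, Tdpoz1 and Tdpoz3 were also higher in replicate 1, by 1.28 (Tcstv1) to 1.87 times (Tdpoz3). Tdpoz2 and Tdpoz5 were higher in replicate 2, by 1.66 and 2.9 times. Tcstv3 (12.6 and 12.4 CPM) and Tdpoz4 (15.3 and 17 CPM) were nearly equal in these replicates.

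Relatives of the members by sequence or domain were listed as well, and 5 of 10 were in the tables and tested. Spop and Spopl, which share the domain arrangement of the Tdpoz proteins, had log2 fold changes of 0.147 and 0.416 in UNC0642-treated Setdb1 KO over WT mESCs (adjusted p = 0.934 and 0.795 in edgeR). Of the 5, 3 rose past both thresholds, the Tcstv relatives AF067061, AF067063 and BC147527 named above, where 2.87% of all features did.

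None of 22 tested regulators of the two-cell state passed both the adjusted p and the 10-fold threshold by edgeR, with or without the replicate block, or by DESeq2 on all 8 libraries in any of the 6 comparisons. Setdb1, the deleted gene, did not reach a 10-fold change itself, so this count does not test for smaller changes. In UNC0642-treated Setdb1 KO over WT mESCs 2.87% of all features rose past both thresholds by edgeR. Of the 22 regulators, 2 had an unadjusted p under 0.05 there, against 18% of features. These were Setdb1 (-1.64, adjusted p = 0.0746 in edgeR) and Ehmt2, which encodes G9a (-1.29, adjusted p = 0.185). With the replicate block both passed the adjusted p alone (0.00593 and 0.0235). Dppa2, an activator of Dux, had 1.04 (adjusted p = 0.325). Dux itself, the transcription factor gene known to switch on MERVL and these genes, stood at 0.261 and 1.91 CPM in WT mESCs, 1.64 and 4.39 CPM with UNC0642, 2.37 and 11.5 CPM in Setdb1 KO mESCs, and 2.91 and 6.51 CPM with both. Its log2 fold change in the combined condition was 2.05 ± 1.04 (SE; adjusted p = 0.349 in edgeR, and 0.02 with the replicate block, at a fold change below 10). In Setdb1 KO over WT mESCs it was 2.59 ± 1.05 (SE; adjusted p = 0.486 in edgeR, and 0.0244 with the replicate block), also below 10-fold. Dux was higher in replicate 2 than in replicate 1 in all 4 conditions. The sum of the 8 genes was higher in replicate 2 of WT mESCs (0.174 and 1.88 CPM) and in replicate 1 of UNC0642-treated and Setdb1 KO mESCs. In the combined condition that sum was 109 CPM in both replicates. The part of Dux in the levels of the 8 genes was not tested. Dux lies in an array of copies, so its count carries the same doubt as those of the Tdpoz genes.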

How the data were processed

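RNA was sequenced from 8 libraries of mESCs, 2 in each of 4 conditions, with groups taken from the labels. The authors trimmed reads with Trim Galore 0.3.7, aligned them to mm10 with TopHat2 and counted genes and transposable element subfamilies with TEtranscripts, and they deposited the raw counts per library. The gene annotation they used is not given in the sources used here. Totals were between 11702590 and 26807807 counts, and 3 counts corresponded to 0.108 to 0.311 CPM. The intervals of shares and of count ratios, and the floors, cover counting error only. Intervals of the fold changes fitted by edgeR were built from the SE of the fit, which also takes in the spread between libraries.

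All 8 libraries were fitted with edgeR 4.0.16 (R 4.3.3) by its quasi-likelihood test. Of 24062 genes and 1153 subfamilies, the filter (minimum count 10, total 15) left 16245 features. TMM factors (0.81 to 1.2) were computed over the features left, with library sizes from all rows. Over the same features p-values were adjusted by Benjamini-Hochberg. Features were called at an adjusted p under 0.05 where they also changed more than 10-fold, and for the interaction the adjusted p alone. The fitted fold changes used a prior count of 0.125. DESeq2 1.42.0 and a block on the replicate number were alternatives. The study's methods call the replicates biological, and the labels number them without saying more. Over the 6 pairs of conditions, the deviations of libraries with the same number from their group means had correlations of 0.285 to 0.663 across 15313 genes. Libraries with the same number thus shared part of their deviation. The labels state no pairing, so the main fit has no block and the fit with the block is given beside it. The scripts were tested on simulated data.

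Shared stretches of 100 and 50 bases were counted over GENCODE M21 transcripts (GRCm38). Coding sequences were aligned with mafft 7.526, promoter windows came from RefSeq, and levels per length used the union of annotated exons. The members and gene lists were chosen with earlier results of these data known. All members were named, with Setdb1, the 4 genes of each list with the smallest p in UNC0642-treated Setdb1 KO over WT mESCs, Dux, and the 5 features most correlated with each of 3 patterns. Near copies, neighbours, germ cell markers and the hexamer were named after their values were seen.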

Additional observations from a re-analysis of the deposited data

How the results depend on the processing

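The number of the 8 genes called changed by more than 1.5 times in several settings. For UNC0642-treated over WT mESCs it was 0 in edgeR, 7 and 5 in DESeq2 on all 8 and on the 4 libraries, and 1 without the filter on low counts. For Setdb1 KO over WT mESCs it was 0, and 6 and 2 in DESeq2 on 8 and 4 libraries, 2 in edgeR on the 4 libraries, 2 with the replicate block and 2 without the filter. For UNC0642-treated Setdb1 KO over WT mESCs it was 7, and 0 to 8 when 1 library was left out. It was 0 without WT replicate 1 and 1 without WT replicate 2, where the lone WT library was assumed to vary like the other conditions and calls over all features fell to 0% and 0.325%. For UNC0642-treated Setdb1 KO over Setdb1 KO mESCs it was 0, and 2 in both DESeq2 fits and 1 with the replicate block. For UNC0642-treated Setdb1 KO over UNC0642-treated mESCs it was 0, and 1 in both DESeq2 fits, with the replicate block and without the filter. The cause of these changes was not tested.

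Log2 fold changes of single genes turned sign only when 1 library was left out. Tdpoz2 in Setdb1 KO over WT mESCs ranged from -3.14 (without Setdb1 KO replicate 1) to 6.06. In Setdb1 KO over UNC0642-treated mESCs, Tcstv1 was 0.58 and Tcstv3 0.479 without UNC0642 replicate 1, Tcstv1 was 0.1 and Tcstv3 0.116 without Setdb1 KO replicate 2, and Tdpoz3 was -0.611 without Setdb1 KO replicate 1. Their ranges over the libraries left out were -1.53 to 0.58, -1.31 to 0.479 and -0.611 to 0.668. The interaction of Tdpoz2 ranged from -5.49 to 3.71 (without Setdb1 KO replicate 1), and that of Tdpoz5 was -3.29 without WT replicate 2 and -0.594 without replicate 2 of UNC0642-treated Setdb1 KO mESCs, with a highest value of 0.876. Scaling by total counts lowered the median of all features by 0.17 in UNC0642-treated Setdb1 KO over WT mESCs, and 6 genes were called there. Members had 0 to 14 counts in the WT libraries, which limits the precision of every fold change over WT mESCs.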
